A study of Homo sapiens with 9 samples.

Results

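Keratin RNA was measured in MHCC97L, an established human hepatocellular carcinoma (HCC) cell line, and in 2 drug-resistant lines grown from it. The 10 genes described are KRT7, KRT8, KRT15, KRT17, KRT18, KRT19, KRT23, KRT80, KRT81 and KRT86. They were chosen by name, as keratins of liver, bile duct and squamous epithelium, out of the 20030 genes of the tables. Untreated MHCC97L, MHCC97L-SRC and MHCC97L-OXA were each sequenced in 3 libraries, 9 in all. MHCC97L-SRC was kept in rising doses of saracatinib, an inhibitor of the kinase Src, until it withstood 4 μmol/L, and MHCC97L-OXA withstood 2 μmol/L of oxaliplatin, a platinum drug. The sources used here do not say whether a resistant line is 1 clone or a mixed population, and drug and selection history cannot be told apart within a line. The libraries are described as independent experiments, and p-values measure only the spread between them.

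Keratins are the intermediate filament proteins of epithelial cells. Type I keratins, which are smaller and acidic, pair with type II keratins, which are larger and neutral to basic, and a filament needs both types in equal amounts. KRT8 (type II) and KRT18 (type I) are the pair of simple epithelia and the main keratins of normal hepatocytes, while bile duct cells add KRT7 (type II) and KRT19 (type I). KRT17 and KRT15 are type I keratins of basal and stressed squamous epithelium, KRT23 is a type I keratin, KRT80 is an epithelial type II keratin, and KRT81 and KRT86 are type II keratins of hair. Diagnostic pathology uses the set of keratins that a tumor makes to trace the epithelium it came from.

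The depth ran from 16970486 to 18209213 counted reads per library. MHCC97L replicate 1 stood furthest apart. Its deviation from the mean of the libraries followed the GC content of the genes with Spearman's rho of -0.781 across genes. In the other 8 libraries rho ran from -0.255 to 0.699, and it was largest in MHCC97L-SRC replicate 2 (0.699) and MHCC97L-SRC replicate 1 (0.542). The lowest correlation of MHCC97L replicate 1 with another MHCC97L library was 0.859. Transcripts of the keratins had a GC content of 50.3% to 62.9%. Each keratin comparison with MHCC97L is therefore given also without MHCC97L replicate 1 and after correcting for GC content and transcript length. The labelled origin in hepatocytes was not visible in the defining hepatocyte markers, since ALB, AFP, APOB, TTR and FGA had 0 counts in all 9 libraries and the 11 hepatocyte markers summed to 0.0586 to 0.648 FPKM. FPKM, which relates the fragments of a gene to its length and to the depth, is the scale on which levels of different genes are compared here.

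KRT8 and KRT18, the simple epithelial pair, were among the most abundant RNAs of every line. KRT8 stood at 855, 1463 and 1547 FPKM in the 3 MHCC97L libraries, at 1115, 1370 and 947 FPKM for MHCC97L-SRC and at 650.2, 631 and 678 FPKM for MHCC97L-OXA. By FPKM, KRT8 ranked between 28 and 48 among all genes in MHCC97L and between 94 and 97 in MHCC97L-OXA. The KRT8 level of every MHCC97L-OXA library lay below all libraries of the other lines, whereas MHCC97L and MHCC97L-SRC overlapped. KRT18 stood at 563, 887 and 959 FPKM in MHCC97L, at 1123, 1298 and 1012 FPKM for MHCC97L-SRC and at 632, 623 and 675 FPKM for MHCC97L-OXA. For KRT18 it was MHCC97L-SRC that lay apart, above all 6 libraries of the other lines, while MHCC97L-OXA fell inside the range of MHCC97L. MHCC97L replicate 1 had the lowest level of KRT8 and of KRT18 in its line.

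KRT7, the type II keratin of bile ducts and other glands, was close to KRT18 in MHCC97L and far lower in MHCC97L-SRC. It stood at 505, 792 and 893 FPKM in MHCC97L, at 178, 219.5 and 171 FPKM for MHCC97L-SRC and at 376, 387 and 441 FPKM for MHCC97L-OXA. The lines did not overlap on this scale, with MHCC97L on top, MHCC97L-OXA next and MHCC97L-SRC below both. Its usual partner in bile duct cells, KRT19, was close to the limit of detection: 2, 9 and 11 reads were counted in MHCC97L, 2, 1 and 4 for MHCC97L-SRC and 0, 2 and 0 for MHCC97L-OXA. The floor of detection was set at 3 counts, or 0.155 to 0.196 CPM (counts scaled to the normalized depth of a library), so KRT19 was over the floor in 2 MHCC97L libraries and 1 MHCC97L-SRC library, was filtered from the tests and has no fold change. KRT23 had 0 counts in all 9 libraries, which allows up to 3 counts in each. Floors cover counting error only, since reads copied by PCR cannot be told from independent molecules here.

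KRT81, a keratin of the hair shaft, was in the range of the simple keratins in MHCC97L and below KRT8 and KRT18 in MHCC97L-SRC. It stood at 595, 985 and 1126 FPKM in MHCC97L, at 305, 374 and 293 FPKM for MHCC97L-SRC and at 544, 568 and 634 FPKM for MHCC97L-OXA. MHCC97L-SRC lay below all other libraries, and MHCC97L-OXA overlapped MHCC97L only through MHCC97L replicate 1. KRT86, also a hair keratin, had 288, 342 and 414 counts in MHCC97L, 144, 200 and 182 for MHCC97L-SRC and 215, 220 and 254 for MHCC97L-OXA, or 0.96 to 2.97 FPKM over the 9 libraries. Its counts were highest in the 3 MHCC97L libraries. The KRT86 count was 0.0106 of the KRT81 count on average in MHCC97L, 0.0147 for MHCC97L-SRC and 0.0103 for MHCC97L-OXA.

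The counts of KRT81 and KRT86 are uncertain because the genes are near copies. In GENCODE release 29 (GRCh38), KRT81 (NCBI gene 3887) lies at chr12:52285913-52291534 on the - strand, inside the span of KRT86 (NCBI gene 3892) at chr12:52249300-52309163 on the + strand. Over 1458 compared coding bases the genes differ at 138, an identity of 90.5%, and a run of 605 bases, from coding base 61 to 665 of KRT81, is identical. Of the 100-base windows of the KRT81 transcript, 30.33% occur without a mismatch in another gene, KRT86 in most cases. The stretches below, coding bases 566 to 715 of each gene counted from the start codon, are shown because they cover the end of the identical run, and capitals mark the 2 bases at which they differ. The stretch of KRT81 spans chr12:52288381-52290090 over exons 2, 3 and 4, and that of KRT86 spans chr12:52303296-52305007 over exons 4, 5 and 6.
KRT81: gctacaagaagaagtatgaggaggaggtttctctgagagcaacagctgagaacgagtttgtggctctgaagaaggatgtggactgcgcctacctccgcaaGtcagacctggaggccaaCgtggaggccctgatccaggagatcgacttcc
KRT86: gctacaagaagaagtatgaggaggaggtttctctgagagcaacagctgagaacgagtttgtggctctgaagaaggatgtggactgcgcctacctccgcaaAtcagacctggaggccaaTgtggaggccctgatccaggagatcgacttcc
How reads that match both genes were counted is not given in the sources used here.

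The other keratins lie in the keratin clusters of chromosomes 12 and 17. KRT8 (chr12:52897187-52949954, - strand) and KRT18 (chr12:52948871-52952901, + strand) start 1083 bases apart and their spans overlap by 1084 bases on opposite strands. KRT7 (chr12:52232520-52252186, + strand) overlaps the start of the longest annotated span of KRT86 by 2887 bases. Of the windows of the KRT8 transcript, 7.25% occur without a mismatch elsewhere, mainly in KRT8 pseudogenes, and for KRT17 this share was 0.35%. KRT80 (chr12:52168996-52192000, - strand) lies in the same region, while KRT15 (chr17:41513743-41522529), KRT17 (chr17:41619441-41624842), KRT19 (chr17:41523617-41528308) and KRT23 (chr17:40922696-40937634) lie on the - strand of chromosome 17. The share of such windows was 0 for KRT7, KRT15, KRT18, KRT19, KRT23 and KRT80. The labels describe stranded libraries, but the strand setting of the counting is not given, so reads of overlapping genes on opposite strands may have been mixed.

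KRT17, a keratin of basal and activated squamous cells, and KRT80 were expressed at middle levels. KRT17 stood at 125, 198 and 202 FPKM in MHCC97L, at 68.9, 112 and 46.2 FPKM for MHCC97L-SRC and at 104, 105.5 and 116.5 FPKM for MHCC97L-OXA. KRT80 stood at 25.2, 39.6 and 40 FPKM in MHCC97L, at 18.3, 20.1 and 17.2 FPKM for MHCC97L-SRC and at 28.3, 30.2 and 30 FPKM for MHCC97L-OXA. MHCC97L-SRC was the lowest line for KRT80, and for KRT17 its 3 libraries were too far apart to be ordered against MHCC97L-OXA. KRT15, a keratin of basal and hair follicle stem cells, was rare, with 25, 32 and 30 counts in MHCC97L, 63, 71 and 65 for MHCC97L-SRC and 22, 29 and 14 for MHCC97L-OXA. The KRT15 counts of MHCC97L-SRC lay above those of all other libraries, and the other lines overlapped.

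**Figure D1:**
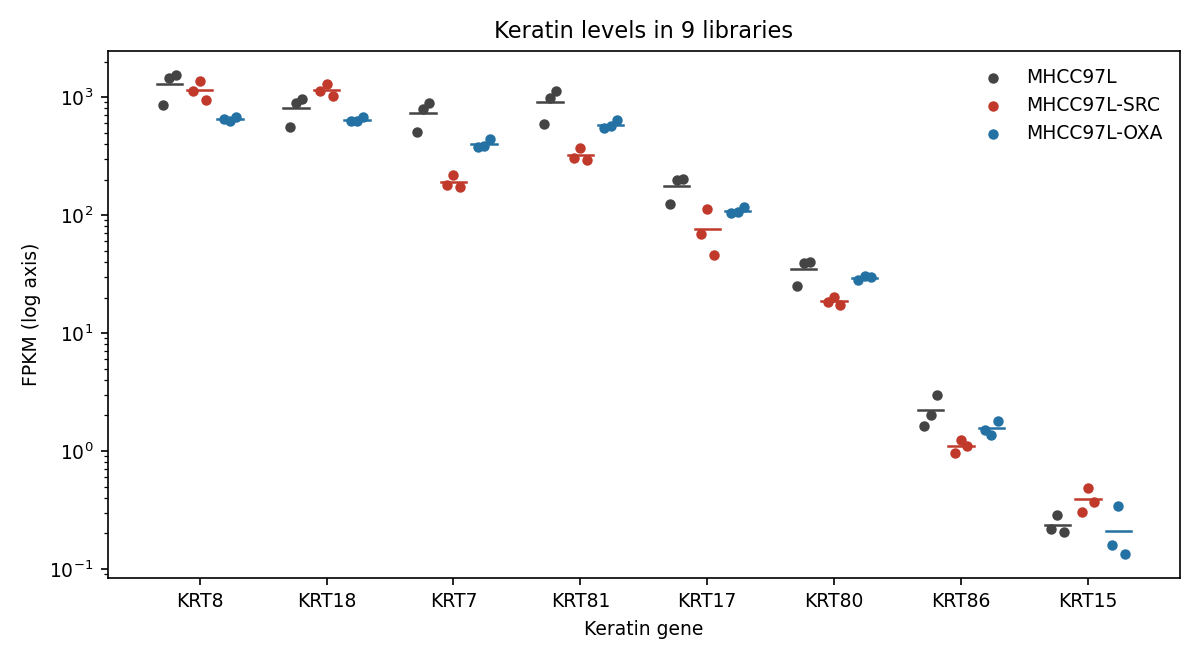
FPKM (log axis) of 8 keratins in each library (points, colored by line), with a dash at the mean of the 3 libraries of a line. KRT19 and KRT23 are left out. KRT8, KRT18, KRT7 and KRT81 lie between 171 and 1547 FPKM in every library, KRT17 and KRT80 lie below them within the same library, and KRT7 is lowest in MHCC97L-SRC.

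The order of the keratins differed between the lines. In all 3 MHCC97L libraries it ran from KRT8 (1288 ± 378 FPKM, SD, n = 3) over KRT81 (902 ± 275) and KRT18 (803 ± 211) to KRT7 (730 ± 202). KRT81, KRT18 and KRT7 differed from their neighbours in this order by less than the SD, KRT8 lay above KRT81 by about the SD of KRT8, and the order was the same in each library. In MHCC97L-SRC, KRT8 (1144 ± 213 FPKM) and KRT18 (1144 ± 144) shared the first place, with KRT8 ahead in 1 library and KRT18 in the other two, and KRT81 (324 ± 43.4) and KRT7 (190 ± 26.1) followed at a distance larger than the spread. In MHCC97L-OXA, KRT8 (653 ± 23.6 FPKM) and KRT18 (643 ± 27.7) could not be separated by their spread, KRT81 came next (582 ± 47) and overlapped both, and KRT7 was last of the 4 (401 ± 35.1). Within each MHCC97L-OXA library the order was the same. These 4 genes made up 93.3% to 96.5% of the counts of all 10 keratins in every library.

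The first question was how the keratins of the saracatinib-resistant line differ from those of its parent. In MHCC97L-SRC, KRT7 fell 3.63-fold against MHCC97L, and it was the only keratin that passed the test. KRT81, KRT17, KRT80 and KRT86 had lower estimates, KRT18 and KRT15 had higher ones, and KRT8 was near 0 on the log2 scale. Of the 8 keratins tested, 0 were called higher and 1 lower, against 1.43% and 0.698% of all 12037 genes tested. A call is an adjusted p under 0.05 in edgeR's quasi-likelihood test with Benjamini-Hochberg adjustment. In bulk RNA, fewer cells that express a keratin and less keratin RNA per cell cannot be told apart.

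The log2 fold change of KRT7 in MHCC97L-SRC was -1.86 (SE 0.33, adjusted p = 0.03). That of KRT81 was -1.41 (SE 0.33, adjusted p = 0.0723), with both groups apart. KRT17 had -1.11 (SE 0.39, adjusted p = 0.12) and KRT80 had -0.83 (SE 0.28, adjusted p = 0.118), and their CPM overlapped MHCC97L replicate 1. KRT86 had -0.87 (SE 0.38, adjusted p = 0.165). KRT15 had the largest positive estimate, 1.30 (SE 0.42, adjusted p = 0.112), and KRT18 had 0.58 (SE 0.31, adjusted p = 0.234). KRT8 had -0.07 (SE 0.35, adjusted p = 0.909), and its sign turned under 5 of the alternatives tried. In CPM, 2 keratins lay wholly above MHCC97L (KRT15 and KRT18) and 3 wholly below (KRT7, KRT81 and KRT86), while 17.6% and 12.2% of all genes tested did so. The median log2 fold change was -0.85 over the 8 keratins and -0.16 over all genes tested.

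The KRT7 call rested on the libraries used. Its adjusted p was 0.115 without MHCC97L replicate 3, 0.141 without MHCC97L-SRC replicate 1, 0.0985 without MHCC97L-SRC replicate 2 and 0.151 without MHCC97L-SRC replicate 3, with log2 fold changes of -1.68 to -2.02. Without MHCC97L replicate 1, 3 keratins were called lower, KRT7 (-2.07, adjusted p = 7.39e-04), KRT81 (-1.63, adjusted p = 0.00187) and KRT80 (-1.02, adjusted p = 0.0118), where 1.94% of all genes were called lower and 3.58% higher. Without MHCC97L replicate 2 there were also 3 calls. After correcting for GC content and length, KRT7 (-2.38, adjusted p = 3.13e-04), KRT81, KRT17, KRT80 and KRT86 were called lower and KRT15 (1.08, adjusted p = 0.0326) higher, where 5.08% and 5.5% of all genes were called. The replicate number as a block gave 3 calls. An unadjusted p under 0.05 together with a log2 change beyond 1 either way was met by 4 keratins, but also by 24.6% of all genes.

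The next question was how the oxaliplatin-resistant line differs from the same parent. All 8 tested keratins had lower estimates in MHCC97L-OXA than in MHCC97L, and none passed the test. KRT8 and KRT7 had the largest differences and KRT80 the smallest. Calls numbered 0 in both directions by edgeR, against 0.771% higher and 0.182% lower of the 12064 genes tested. An unadjusted p under 0.05 was reached by 3 keratins, and by 2708 of all 12064 genes tested. DESeq2 called 0 keratins. The unadjusted threshold with a log2 change beyond 1 was met by 0 keratins and by 16.2% of all genes.

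KRT8 had a log2 fold change of -0.94 (SE 0.30, adjusted p = 0.183) and KRT7 of -0.87 (SE 0.29, adjusted p = 0.192), and for both the 3 MHCC97L-OXA libraries lay below all MHCC97L libraries. KRT17 had -0.66 (SE 0.25), KRT81 -0.62 (SE 0.29), KRT86 -0.60 (SE 0.32), KRT15 -0.43 (SE 0.43), KRT18 -0.33 (SE 0.27) and KRT80 -0.25 (SE 0.25), with adjusted p from 0.204 to 0.538. In CPM, 3 keratins (KRT7, KRT8 and KRT86) lay wholly below MHCC97L and 0 wholly above, against 9.9% and 18.2% of all genes. The median was -0.61 over the keratins and -0.19 over all genes tested. Without MHCC97L replicate 1, 7 keratins were called lower, all but KRT15, where 6.6% of all genes were called lower and 11.9% higher. Their log2 fold changes then ran from -0.39 for KRT80 to -1.11 for KRT8 (adjusted p = 7.34e-04). After correcting for GC content and length, 6 were called lower, where 6.42% of all genes were called lower and 6.47% higher, and KRT80 (adjusted p = 0.0827) and KRT15 (adjusted p = 0.307) were not. Both comparisons with MHCC97L share the 3 MHCC97L libraries, so their values are not independent of each other.

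**Figure D2:**
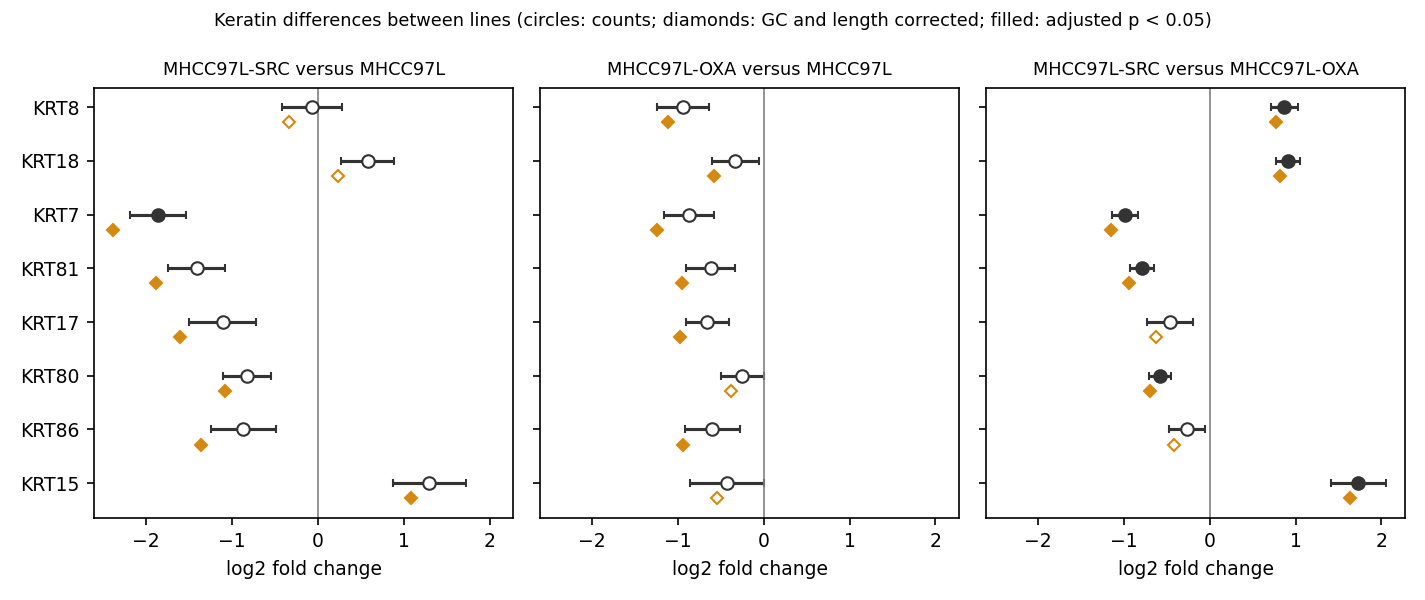
Log2 fold change of each tested keratin in the 3 comparisons, from counts (circles, with bars of 1 standard error) and after correcting for GC content and length (diamonds, without bars). Filled symbols have an adjusted p under 0.05. KRT7 is at -1.86 in MHCC97L-SRC, and all 8 keratins lie below 0 in MHCC97L-OXA.

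The resistant lines were also compared with each other, a comparison that does not use the MHCC97L libraries. KRT18, KRT8 and KRT15 were higher in MHCC97L-SRC than in MHCC97L-OXA, and KRT7, KRT81 and KRT80 were lower. Of the 8 keratins tested, 3 were called higher and 3 lower, while 2.12% and 2.52% of the 11994 genes tested were. KRT18 and KRT8, the simple epithelial pair, differed 1.88-fold and 1.83-fold, and KRT7 differed 1.99-fold in the other direction. The same 6 genes were called after correcting for GC content and length, where 4.51% of all genes were called higher and 5.14% lower.

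KRT18 had a log2 difference of 0.91 (SE 0.14, adjusted p = 0.00471), with counts of 43768, 48660 and 39639 for MHCC97L-SRC and 25541, 24670 and 26276 for MHCC97L-OXA. KRT8 had 0.87 (SE 0.16, adjusted p = 0.0136), with 48497, 59554 and 42794 counts against 30502, 28881 and 30643. KRT15 had 1.73 (SE 0.32, adjusted p = 0.0136). For all 3 genes the higher line lay wholly above the other in CPM. In FPKM the lines overlapped for KRT15, with 0.306, 0.487 and 0.372 for MHCC97L-SRC and 0.16, 0.34 and 0.134 for MHCC97L-OXA. It was not called by limma on log2(FPKM + 1) (0.2, adjusted p = 0.241) or on log2(FPKM + 0.1) (0.69, adjusted p = 0.249). KRT7 had -0.99 (SE 0.15, adjusted p = 0.00501), with 13141, 15999 and 12816 counts for MHCC97L-SRC and 28468, 29080 and 33161 for MHCC97L-OXA. KRT81 had -0.79 (SE 0.14, adjusted p = 0.0115), with 11077, 13437 and 11133 counts against 21200, 21967 and 23832, and KRT80 had -0.58 (SE 0.13, adjusted p = 0.0303). These 3 genes lay wholly lower in MHCC97L-SRC. Lines without overlap in CPM were found for 14.6% of all genes in the higher and 12.5% in the lower direction. KRT17 (-0.46, adjusted p = 0.384) and KRT86 (-0.27, adjusted p = 0.51) did not pass the test, and for KRT17 the MHCC97L-SRC libraries, at 2402, 3758 and 1674 counts, spread wider than the difference.

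KRT7 and KRT18 were called whichever of the 6 libraries was left out. KRT81 was called in 3 of these 6 fits, KRT15 in 3, KRT8 in 2 and KRT80 in 2. Calls were lost without MHCC97L-SRC replicate 1 and without each of the MHCC97L-OXA libraries, where 2 or 3 keratins were called, and the adjusted p of KRT8 then ran from 0.0535 to 0.106. The direction of all 6 stayed, with KRT8 between 0.64 and 1.04 and KRT81 between -0.97 and -0.68. When all 9 libraries shared 1 estimate of the spread, 0 keratins were called and adjusted p ran from 0.108 for KRT15 to 0.611 for KRT80 among these 6. The unadjusted threshold with a log2 change beyond 1 was met by KRT15 alone, and by 4.01% of all genes.

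Ratios of the counts of 2 keratins within a library do not depend on how libraries are scaled, and they are given as a description that was chosen after the values were seen. The ratio of KRT8 to KRT18 was 1.68, 1.84 and 1.82 in MHCC97L, 1.11, 1.22 and 1.08 for MHCC97L-SRC and 1.19, 1.17 and 1.17 for MHCC97L-OXA. Both resistant lines lay below MHCC97L without overlap and overlapped each other. The ratio of KRT7 to KRT8 was 0.966 ± 0.0393 (SD, n = 3) in MHCC97L, 0.28 ± 0.0172 for MHCC97L-SRC and 1.01 ± 0.0744 for MHCC97L-OXA, so that only MHCC97L-SRC lay apart. The ratio of KRT18 to KRT81 was 0.944 ± 0.0541, 3.71 ± 0.21 and 1.14 ± 0.0541 in the same order, and KRT7 to KRT81 was 1.62 ± 0.0423, 1.18 ± 0.0217 and 1.35 ± 0.0349, without overlap for either. MHCC97L replicate 1, which had the lowest levels, had ratios near those of its line, such as 0.994 for KRT7 to KRT8. The ratio of KRT17 to KRT81 overlapped in all 3 comparisons. The ratio of KRT8 to KRT81 averaged 1.68 in MHCC97L and 1.35 in MHCC97L-OXA against 4.22 in MHCC97L-SRC.

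**Figure D3:**
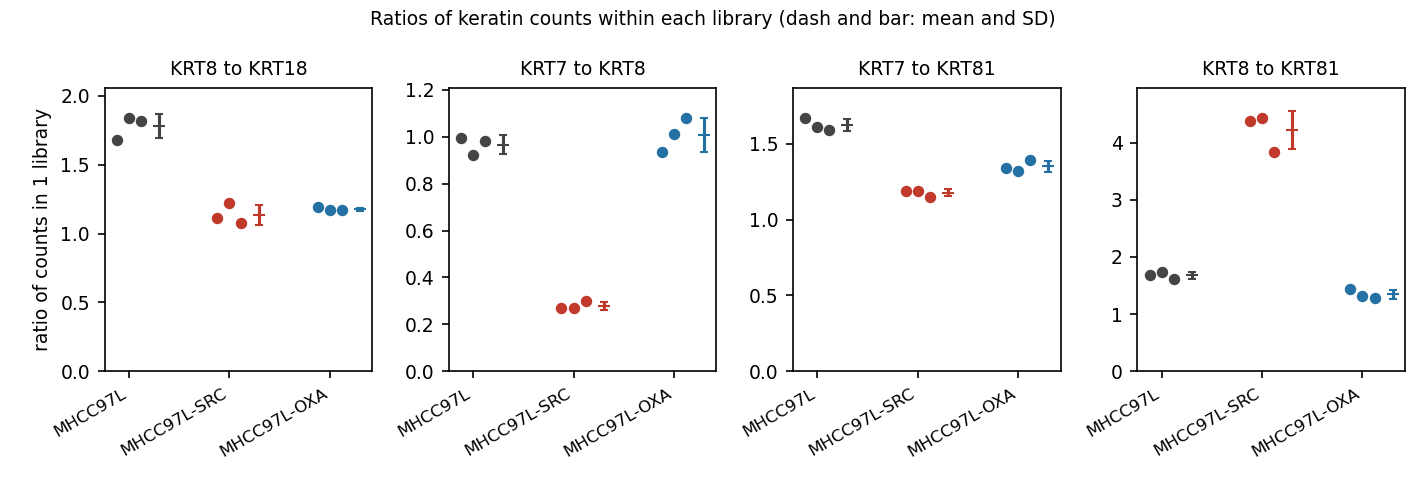
Ratios of the counts of 4 keratin pairs within each library (points) by line, with a dash at the mean of the 3 libraries and bars of 1 SD. KRT8 to KRT18 is lower in both resistant lines than in MHCC97L, and KRT7 to KRT8 is lower in MHCC97L-SRC, at 0.28 on average.

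The balance of type II to type I keratins followed from these levels. The type II members summed to 1981, 3281 and 3609 FPKM in MHCC97L, 1617, 1985 and 1429 FPKM for MHCC97L-SRC and 1600, 1617 and 1785 FPKM for MHCC97L-OXA. The type I members summed to 688, 1085 and 1162 FPKM in MHCC97L, 1192, 1410 and 1059 FPKM for MHCC97L-SRC and 736, 728 and 791 FPKM for MHCC97L-OXA. The ratio of the sums was 2.88, 3.02 and 3.11 in MHCC97L, 1.36, 1.41 and 1.35 for MHCC97L-SRC and 2.17, 2.22 and 2.26 for MHCC97L-OXA. Type II RNA thus exceeded type I RNA in every library, and the 3 lines did not overlap in this ratio. With the 44 other keratins added the mean ratios were 2.95, 1.36 and 2.18.

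Within the members' FPKM, KRT18 took 20.1% to 21.1% in MHCC97L, 38.2% to 40.7% for MHCC97L-SRC and 26.2% to 27.1% for MHCC97L-OXA. KRT7 took 18.1% to 18.9%, 6.34% to 6.89% and 16.1% to 17.1% in the same order, and KRT81 22.3% to 23.6%, 10.8% to 11.8% and 23.3% to 24.6%. KRT8 took 32% to 33.5%, 38% to 40.4% and 26.3% to 27.8%. For KRT18, KRT7, KRT81 and KRT8 the MHCC97L-SRC libraries thus stood apart from the others by more than the spread within any line, as a description without a test. The 10 keratins together took 0.716%, 1.17% and 1.28% of all counts in MHCC97L, 0.699%, 0.848% and 0.627% for MHCC97L-SRC and 0.621%, 0.625% and 0.685% for MHCC97L-OXA. MHCC97L-OXA lay below MHCC97L in this share, and MHCC97L-SRC overlapped MHCC97L through MHCC97L replicate 1.

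**Figure D4:**
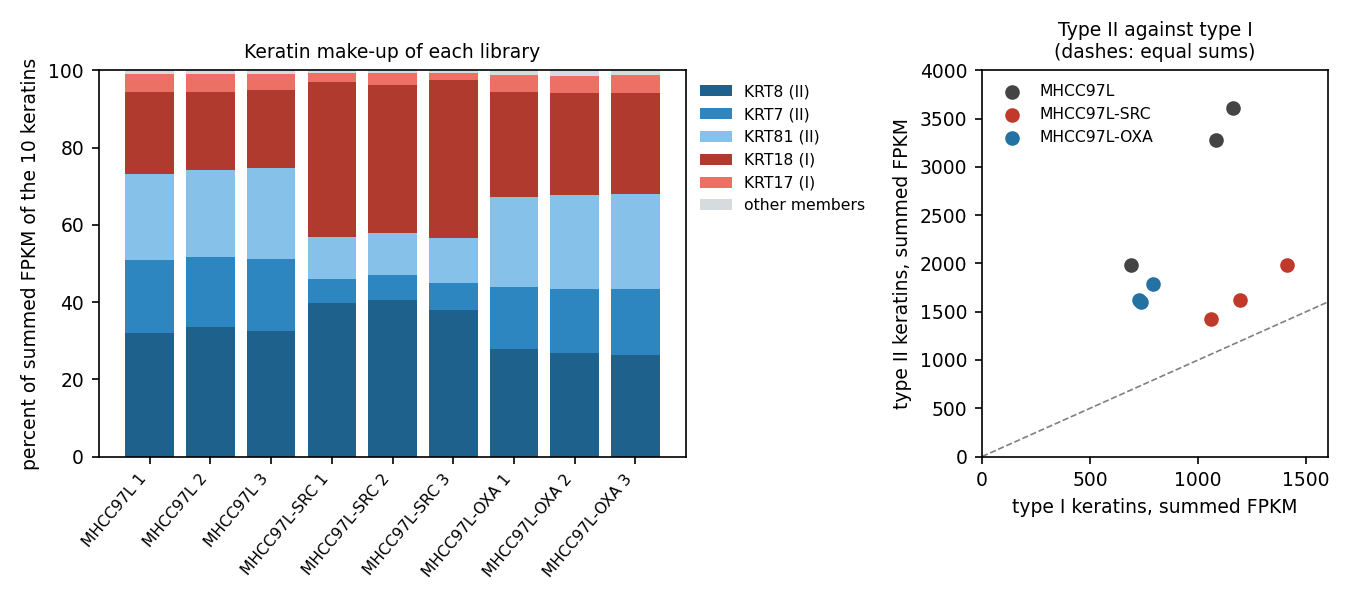
Left, share of each keratin in the summed FPKM of the 10 keratins, in percent, for each library. Right, summed FPKM of type II against type I members for each library, with dashes where both sums are equal. KRT18 takes a larger part in the MHCC97L-SRC libraries, and all 9 points lie above the dashes.

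Among the 44 other keratins of the tables, 27 had 0 counts in all libraries and 4 reached 10 counts in a library. KRT10, the type I keratin of upper epidermis, had 786 to 1121 counts per library, with log2 fold changes of 0.05 for MHCC97L-SRC and 0.08 for MHCC97L-OXA against MHCC97L. KRT16, which accompanies KRT17 in activated epidermis, had 65 to 176 counts. KRT5, the type II keratin of basal cells, had 6, 13 and 19 counts in MHCC97L, 2, 8 and 1 for MHCC97L-SRC and 1, 0 and 0 for MHCC97L-OXA, and KRT83, a hair keratin, had 2 to 19. None of those tested (3, 2 and 3 in the order of the comparisons above) was called, and 0 had an unadjusted p under 0.05.

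Proteins that anchor keratins at junctions were described as a list of 23 genes, 17 of them tested. JUP (plakoglobin, a plaque protein of desmosomes) had 5596, 8495 and 8904 counts in MHCC97L, 23191, 24598 and 22943 for MHCC97L-SRC and 13434, 14434 and 13358 for MHCC97L-OXA. The lines did not overlap, and JUP rose 3.32-fold in MHCC97L-SRC over MHCC97L (log2 1.73, SE 0.28, adjusted p = 0.0225) and was higher than in MHCC97L-OXA by 0.89 on the log2 scale (adjusted p = 0.0018). ITGB4, the integrin of hemidesmosomes, was lower in MHCC97L-SRC than in MHCC97L-OXA (-0.87, adjusted p = 0.00419). No other gene of the list was called in these comparisons, and against MHCC97L the count in MHCC97L-OXA was 0 by edgeR. At an unadjusted p under 0.05 there were 3 in MHCC97L-OXA, beside 2708 of all 12064 genes tested. DSP (desmoplakin), which ties keratins to desmosomes, had 2988, 582 and 1452 counts in MHCC97L and 881 to 1326 in the resistant lines, and PLEC (plectin), a linker of filaments, had 16321 to 27494 counts. Neither was called in a comparison of the counts. PLEC was called lower in MHCC97L-OXA than in MHCC97L without MHCC97L replicate 1 (-0.60, adjusted p = 0.00193) and after correcting for GC content and length (-0.69, adjusted p = 0.034). ITGB4 had 1.25 in MHCC97L-OXA against MHCC97L (adjusted p = 0.0574) and was called higher under both alternatives (1.15, adjusted p = 9.12e-04, and 1.07, adjusted p = 0.00298). In MHCC97L-SRC against MHCC97L ITGB4 had 0.38 (adjusted p = 0.361).

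CDH1 (E-cadherin), the adhesion protein of epithelia, was near the floor, with 19, 19 and 15 counts in MHCC97L, 5, 2 and 4 for MHCC97L-SRC and 3, 4 and 2 for MHCC97L-OXA. Both resistant lines lay below MHCC97L without overlap, but the adjusted p was 0.0769 and 0.058. CDH1 passed the filter only through its MHCC97L counts, so these tests could find it only lower. After correcting for GC content and length CDH1 was called lower in both (adjusted p = 0.0295 and 0.0151), and without MHCC97L replicate 1 it was called in MHCC97L-OXA (adjusted p = 0.024) and not in MHCC97L-SRC (adjusted p = 0.0808). VIM (vimentin), the intermediate filament protein of mesenchymal cells, had 16729 to 22882 counts in MHCC97L, 11996 to 21068 for MHCC97L-SRC and 23099 to 29844 for MHCC97L-OXA, and stood at 258 to 621 FPKM over the 9 libraries. Its log2 fold changes were -0.21 and 0.35 against MHCC97L and -0.55 between the resistant lines (adjusted p = 0.0798). After correcting for GC content and length VIM was called lower in MHCC97L-SRC than in MHCC97L-OXA (-0.48, adjusted p = 0.00232). Of the 13 other intermediate filament genes 8 were tested and edgeR called 0 in each comparison, with 2, 2 and 1 at an unadjusted p under 0.05. Among all genes tested, 3546 of 12037, 2708 of 12064 and 2340 of 11994 met that threshold in the same order.

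Of 20 proteins that bind or modify keratins, all tested, only TGM2 (a transglutaminase, which crosslinks proteins) was called, higher in MHCC97L-SRC (2.12, adjusted p = 0.0114) and in MHCC97L-OXA (1.84, adjusted p = 0.0271) than in MHCC97L. Of 15 transcription factors of epithelia, ELF3 was higher (0.97, adjusted p = 0.00879) and KLF4 lower (-0.92, adjusted p = 0.0213) in MHCC97L-SRC than in MHCC97L-OXA. Against MHCC97L, edgeR called 0 of 5 tested for MHCC97L-SRC and 0 of 6 for MHCC97L-OXA. At an unadjusted p under 0.05 there were 4 and 1, while 3546 of 12037 and 2708 of 12064 genes tested met that threshold. Of 20 genes of squamous differentiation 9 had 0 counts in all libraries, among them IVL, LOR and FLG of the cornified envelope. S100A9, a calcium-binding protein of activated epidermis and myeloid cells, had 12 to 15 counts in MHCC97L, 602 to 688 for MHCC97L-SRC and 238 to 250 for MHCC97L-OXA. It rose by 5.68 for MHCC97L-SRC and 4.19 for MHCC97L-OXA on the log2 scale (adjusted p = 6.16e-04 and 0.00898) and was 1.49 higher in MHCC97L-SRC than in MHCC97L-OXA (adjusted p = 3.79e-04). S100A8, its partner, rose by 3.52 in MHCC97L-SRC (adjusted p = 0.018), from 3 to 6 counts to 38 to 59. Against MHCC97L it passed the filter only through the resistant line, so these tests could find it only higher. In MHCC97L-OXA S100A8 had 36, 19 and 25 counts and a log2 fold change of 2.49 (adjusted p = 0.0657), which was called after correcting for GC content and length (adjusted p = 0.0242) and without MHCC97L replicate 1 (adjusted p = 0.0263).

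Markers of other cell types were counted beside the keratins, and their part in the keratin differences was not tested. Of 7 bile duct markers, CFTR had 0 counts in all libraries and EPCAM at most 2, and the summed level was 1.74 to 2.66 FPKM in MHCC97L, 20.4 to 22.4 FPKM for MHCC97L-SRC and 4.86 to 6.37 FPKM for MHCC97L-OXA. Most of it was CLDN4, a tight junction protein, which rose by 3.80 in MHCC97L-SRC against MHCC97L (adjusted p = 0.00768) and was 2.40 higher than in MHCC97L-OXA (adjusted p = 1.27e-04). SOX9, the only other bile duct marker over the floor, had its highest counts in MHCC97L-OXA. It had 38, 57 and 46 counts in MHCC97L, 101, 99 and 116 for MHCC97L-SRC and 148, 145 and 123 for MHCC97L-OXA, and was not called from all libraries. Of the hepatocyte markers SERPINA1 was higher in MHCC97L-OXA (adjusted p = 0.0323), with 14 to 31 counts against 1 in each MHCC97L library, which is under the floor. It passed the filter only through its MHCC97L-OXA counts, so this test could find it only higher. In MHCC97L-SRC SERPINA1 had 22, 9 and 10 counts and was filtered from the test against MHCC97L. Between the resistant lines it was not called (-0.42, adjusted p = 0.686).

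Fibroblast markers summed to 22.4 to 35.8 FPKM in MHCC97L, 13.2 to 16.5 FPKM for MHCC97L-SRC and 26.5 to 30.2 FPKM for MHCC97L-OXA, with COL1A2 at 0 to 2 counts. COL1A1 had 1083 to 1159 counts in MHCC97L, 1022 to 1163 for MHCC97L-SRC and 1303 to 1491 for MHCC97L-OXA. ACTA2 had 84 to 258 counts over all libraries. DCN (-1.89, adjusted p = 0.00294) and PDGFRB (-1.32, adjusted p = 0.00395) were lower in MHCC97L-SRC than in MHCC97L-OXA, and DCN was highest in MHCC97L replicate 1, at 2256 counts against 755 and 729. PTPRC, CD3E and LYZ, defining genes of leukocytes, and KDR of endothelium had 0 counts in all libraries. The 6 leukocyte markers summed to 14.3 to 21.8 FPKM in MHCC97L, 23.2 to 27.7 FPKM for MHCC97L-SRC and 43.3 to 43.6 FPKM for MHCC97L-OXA, most of it CD68, a lysosomal protein, which was lower in MHCC97L-SRC than in MHCC97L-OXA (-0.75, adjusted p = 0.0116). CD14 rose by 2.58 and 2.24 in MHCC97L-SRC and MHCC97L-OXA (adjusted p = 0.0236 and 0.0428), from 16 to 20 counts to 79 to 104. The 4 endothelial markers summed to at most 2.06 FPKM, and CDH5 rose by 3.30 in MHCC97L-SRC (adjusted p = 0.0139) and was 4.61 higher than in MHCC97L-OXA (adjusted p = 1.7e-05). The calls against MHCC97L given for JUP, TGM2, S100A9, S100A8, CLDN4, SERPINA1, CD14 and CDH5 were also made without MHCC97L replicate 1 and after correcting for GC content and length. In MHCC97L-OXA JUP was not called from all libraries (adjusted p = 0.167) but was called higher under both alternatives (0.71, adjusted p = 0.00196, and 0.63, adjusted p = 0.00867).

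Genes whose log2 CPM followed a keratin most closely over the 9 libraries were named for the keratin with the highest mean FPKM, KRT8, and the one that varied most between lines, KRT7. These Pearson correlations describe 9 libraries that fall into 3 lines, and 12282 genes were compared. All genes of a library share its depth and its dependence on GC content, for which rho ran from -0.781 to 0.699 between libraries. The correlations were not corrected for this dependence. For KRT8 the closest genes included SGF29 (0.9863) and MRPS25 (0.9846), and its partner KRT18 ranked 486 with 0.817. For KRT7 they were KRT81 (0.9911), TUBA4A (0.9861) and PHLDB1 (0.984), with KRT80 at rank 47 (0.938) and KRT17 at rank 73 (0.916). The correlation of KRT7 with KRT8 was 0.203 and with KRT18 it was -0.329.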

How the data were processed

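RNA of 9 libraries was sequenced, 3 from each of MHCC97L, MHCC97L-SRC and MHCC97L-OXA, and libraries were grouped by the treatment in their labels. The authors deposited raw counts per gene and FPKM values for 20030 genes. The submitters' processing notes name Trimmomatic 0.36, HISAT2 2.2.1.0 and GRCh38.p12, and the counting program is not given in the sources used here. The members and lists were chosen with earlier results of these data known. Named genes were the 10 keratins, other keratins with at least 10 counts in a library, called members of the lists (at most 4 per list and comparison, by smallest p), VIM, CDH1, DSP and PLEC, and the 3 genes most correlated with each of 2 keratins. Some genes that this rule or the marker lists name are not reported here.

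Counts of the 6 libraries of each comparison were filtered by filterByExpr (minimum count 10), normalized by TMM and tested by edgeR 4.0.16 in R 4.3.3 across all genes. A gene could pass this filter through the counts of a single line. Standard errors are on the log2 scale. Log2 CPM used a prior count of 2. GC content and length, known for 96.6% of genes, were fitted by splines with 5 degrees of freedom each. Alternatives used DESeq2 1.42.0, limma 3.58.1 on log2(FPKM + 1) or log2(FPKM + 0.1), other filters and scalings, all 9 libraries together, each library left out, and a block for the replicate number. The lists under the GC correction and all results without MHCC97L replicate 1 beyond the keratins were added after seeing the data. Code was tested on simulated data.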

Additional observations from a re-analysis of the deposited data

Results flagged for a closer look

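The effects of the resistant lines against MHCC97L differed for 6 keratins by the direct test of MHCC97L-SRC against MHCC97L-OXA with edgeR's quasi-likelihood test. The log2 difference was 1.73 for KRT15, 0.91 for KRT18 and 0.87 for KRT8. In CPM these were higher in 3 of 3 MHCC97L-SRC libraries than in any MHCC97L-OXA library, while in FPKM the lines overlapped for KRT15. The log2 difference was -0.99 for KRT7, -0.79 for KRT81 and -0.58 for KRT80, which were lower in 3 of 3. The adjusted p of these genes ran from 0.00471 to 0.0303. The counts of KRT81 may include reads of KRT86.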

How the results depend on the processing

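The number of keratins called in MHCC97L-SRC against MHCC97L was 1. It was 3 with DESeq2, 2 with total counts, 2 without a filter, 5 with all 9 libraries in 1 fit, 2 with limma on log2(FPKM + 0.1), 6 with the GC and length correction, 4 where an unadjusted p and a log2 change beyond 1 were the threshold, and 0 to 3 with 1 library left out. In MHCC97L-OXA the 0 calls became 6 with the GC and length correction and 0 to 7 with 1 library left out, 7 being without MHCC97L replicate 1. Between the resistant lines the 6 calls became 0 with all 9 libraries, 1 at the unadjusted threshold and 2 to 7 with 1 library left out.

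Pairing by replicate number was not visible, as correlations of same-numbered deviations ran from -0.65 to 0.444. These deviations were not corrected for GC content, so the values cannot decide whether libraries of the same number share a batch. With the replicate block the calls were 3 in MHCC97L-SRC against MHCC97L, and with the block and the GC and length correction 2 there and 5 in MHCC97L-OXA. KRT8 in MHCC97L-SRC changed sign, to 0.03 with DESeq2 and 0.03 with its size factors, and ran from -0.29 to 0.12 with 1 library left out. In CPM in place of FPKM the type II to type I ratios were 3.92, 1.67 and 2.92 in MHCC97L, MHCC97L-SRC and MHCC97L-OXA, and each was lower in FPKM. The GC and length correction moved the median of all genes from -0.16 to -0.04 for MHCC97L-SRC and from -0.19 to -0.08 for MHCC97L-OXA.

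Calls of the gene lists, as sums over both directions, moved by more than 1.5 times, or from 0, in these cases. After the GC and length correction, calls in MHCC97L-SRC against MHCC97L went from 0 to 1 for other keratins, 1 to 2 for keratin anchors, 0 to 3 for transcription factors, 1 to 3 for keratin-binding proteins, 1 to 2 for bile duct markers and 0 to 1 for fibroblast markers. In MHCC97L-OXA they went from 0 to 3 for anchors, 0 to 1 for transcription factors, 1 to 4 for squamous genes, 1 to 3 for keratin-binding proteins, 0 to 2 for bile duct, 1 to 2 for leukocyte and 0 to 1 for endothelial markers. Between the resistant lines they went from 0 to 1 for other intermediate filament genes, 1 to 2 for squamous genes and 0 to 2 for keratin-binding proteins. Without MHCC97L replicate 1, MHCC97L-SRC had 2 calls among anchors, 2 among keratin-binding proteins and 1 among fibroblast markers, and MHCC97L-OXA had 1 among other intermediate filament genes, 4 among anchors, 1 among transcription factors, 3 among squamous genes, 4 among keratin-binding proteins and 1, 3 and 2 among bile duct, fibroblast and leukocyte markers. The causes of these changes were not tested. Calls also rose among all genes tested. In the MHCC97L-OXA comparison with MHCC97L, dropping MHCC97L replicate 1 gave 11.9% called higher and 6.6% lower. The GC and length correction gave 6.47% and 6.42% there. With MHCC97L-SRC, dropping that library gave 3.58% and 1.94%, while the correction gave 5.5% and 5.08%. Between the resistant lines the corrected shares were 4.51% higher and 5.14% lower. Whether any list exceeded these shares was not tested.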
